A study of Mus musculus with 384 samples.

Results

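Gfi1, Cebpa, Klf4 and Gata1 are transcription factors known from the myeloid and erythroid branches of blood formation, and their transcripts were measured in single common lymphoid progenitors (CLP). They were picked by name and make up 4 of the 96 TaqMan assays of the panel. The cells came from the bone marrow of wild-type C57/Bl6 mice, a genotype and tissue that all groups share, and were sorted as Lin- B220- Flt3+ Il7r+ Kitlow Sca1low. Each of 4 plates, P0 to P3, held 90 wells with 1 cell, 4 wells in which reverse transcriptase was left out (no-RT wells), and pools of 10 and of 20 cells in 1 well each. The labels do not say which plates came from separate mice, so the spread between plates may be technical. The measured value was Ct, the amplification cycle at which the product appeared, where a lower Ct means more cDNA and 1 cycle is about a factor of 2 (log2 scale). A product was a Ct below 28.

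Of 360 single-cell wells, 347 were kept, 86 on P0 and 87 on each of P1, P2 and P3, with products from 22 to 54 of the 96 assays. The sort marker Kit had a product in 97.4% of these cells and the T cell antigen Cd3e in 0 of 347, which allows a share of up to 0.865%; Flt3, Il7r and Sca1 are not among the names on the panel. No-RT wells gave products from a median of 6.5 assays. The 10-cell well of P0 gave 29 products where the other 10-cell wells gave 68 to 71, and it gave none from any of the 4 factors, so counts of 10-cell wells are given with and without it.

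A CLP can give rise to B, T and NK cells, and commitment to B cells runs through the factors Ebf1 and then Pax5, which also shuts off genes of other lineages. Cebpa starts granulocyte and monocyte development, Gfi1 is a repressor that favours granulocytes over monocytes and also acts in stem cells and lymphocytes, Klf4 is a zinc finger factor of monocytes that restrains division in B cells, and Gata1 is the main factor of red cells and megakaryocytes. Csf3r (CD114) is the receptor for G-CSF, which acts on granulocytes, and Csf1r (CD115) is the receptor for M-CSF, which acts on monocytes and macrophages. The 4 factors are named here by gene and not by lineage, because the calls below placed Klf4 with B lymphoid genes and Gfi1 with none of the partner genes. The partners, Ebf1, Pax5, Csf3r and Csf1r, mark the B lymphoid and the myeloid side.

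The upstream promoter sequences of Klf4 and Cebpa are shown because these were the factors that fell on opposite sides of the Ebf1 and Pax5 cells described further on. Each is the 250 bases before the first transcribed base, from RefSeq on the build GRCm38.p6, written 5′ to 3′ on the strand of the gene. Klf4 lies on the minus strand at chr4:55532476-55532725 and Cebpa on the plus strand at chr7:35119043-35119292. Capitals mark matches, on either strand, to any of 5 short motifs.
Klf4: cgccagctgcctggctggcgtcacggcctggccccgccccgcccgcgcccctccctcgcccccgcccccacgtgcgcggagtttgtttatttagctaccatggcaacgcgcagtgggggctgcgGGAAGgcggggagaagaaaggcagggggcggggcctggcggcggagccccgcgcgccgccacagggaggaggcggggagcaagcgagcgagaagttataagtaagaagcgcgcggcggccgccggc
Cebpa: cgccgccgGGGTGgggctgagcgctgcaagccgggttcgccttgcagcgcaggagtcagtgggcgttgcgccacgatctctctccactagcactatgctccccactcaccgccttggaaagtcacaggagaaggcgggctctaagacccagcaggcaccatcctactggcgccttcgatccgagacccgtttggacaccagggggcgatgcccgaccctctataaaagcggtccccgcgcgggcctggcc
The Klf4 window holds 1 match to the ETS core GGAAG, 126 bases before the start, which 64.1% of 32851 windows of the same length hold. The Cebpa window holds 1 match to the KLF-type motif CACCC, here as its reverse complement GGGTG and 242 bases before the start, a motif found in 52.0% of windows. Neither window holds the EBF motif, TCCC followed after any 2 bases by GGGA (0.779% of windows), the CEBP motif TTGCNNAA (9.56%) or the GATA motif AGATAA (9.99%). The motifs can share bases with one another, a match is a description of the letters and not of a bound site, and these data hold no measurement of binding. G and C make up 74.0% of the Klf4 window and 66.4% of the Cebpa window. None of the Ct values reads the promoter itself.

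The 4 factors gave products at 4 distinct frequencies among CLP. Gfi1 was in most cells, Cebpa in about 1 cell of 3, Klf4 in about 1 of 7, and Gata1 in 2 of 347. Cebpa also gave a product in 7 of 16 no-RT wells (43.8%), and its share in cells was not called higher than in those wells. Gfi1 had a product in 69.8% of the cells of P0, 77.0% of P1, 78.2% of P2 and 71.3% of P3, a mean of 74.1% ± 4.15 (SD, n = 4 plates, 257 cells). Cebpa had a product in 32.6%, 41.4%, 36.8% and 31.0% of cells on P0 to P3, a mean of 35.4% ± 4.65 (123 cells). Klf4 had a product in 9.30%, 12.6%, 11.5% and 23.0%, a mean of 14.1% ± 6.08 (49 cells). P3 alone held 20 of the 49 Klf4 cells, and without that plate the mean share was 11.2%. The plate ranges of Gfi1, Cebpa and Klf4 did not overlap. Among the 96 assays ordered by share, Gfi1 stood 31st, Cebpa 47th, Klf4 65th and Gata1 86th.

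Gata1 had a product in no cell of P0 or P1 and in 1 of 87 cells on each of P2 and P3, a mean of 0.575% ± 0.664. Over all kept cells the share was 0.576%, with an exact 95% interval of 0.0699% to 2.07% that covers counting error only. The 0 of 86 and 0 of 87 cells of P0 and P1 allow shares of up to 3.49% and 3.45%, so the plates did not differ detectably. For comparison, the partner genes had products in 73.8% ± 5.97 (Ebf1), 48.7% ± 4.11 (Csf3r), 25.9% ± 1.97 (Pax5) and 22.2% ± 2.13 (Csf1r) of cells. The shares of Gfi1 and Ebf1 differed by less than the spread between plates, and Cebpa lay between Csf3r and Pax5.

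The Ct of the cells with a product differed in spread from factor to factor. Ct values of different assays are not compared as levels here, because the efficiency of each assay is unknown. Median Ct of Gfi1 was 16.67 on P0, 16.40 on P1, 16.33 on P2 and 16.57 on P3, a mean of 16.49 ± 0.15 (SD, n = 4), and the middle 50% of its cells spanned 1.79 cycles. Klf4 medians were 15.84, 15.98, 16.70 and 16.80 (16.33 ± 0.49), with a middle 50% over 1.66 cycles. Both genes thus gave a compact group of cells with a thin late tail, since 25 Gfi1 cells (9.73%) and 5 Klf4 cells (10.2%) had a Ct of 20 or later. Cebpa medians were 19.66, 19.55, 19.67 and 18.31 (19.30 ± 0.66), and the middle 50% of its cells spanned 4.34 cycles. Cebpa cells ran without a clear gap from a Ct of 14.23 to 26.33, and 50 of 123 (40.7%) had a Ct of 20 or later. The 2 Gata1 cells had a Ct of 15.92 on P2 and 17.57 on P3. Few cells lay near the limit of 28: 5 Gfi1, 4 Cebpa, 1 Klf4 and 0 Gata1 cells had a Ct from 25 to 28, and no kept cell had one of these 4 products between 28 and 40.

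**Figure D1:**
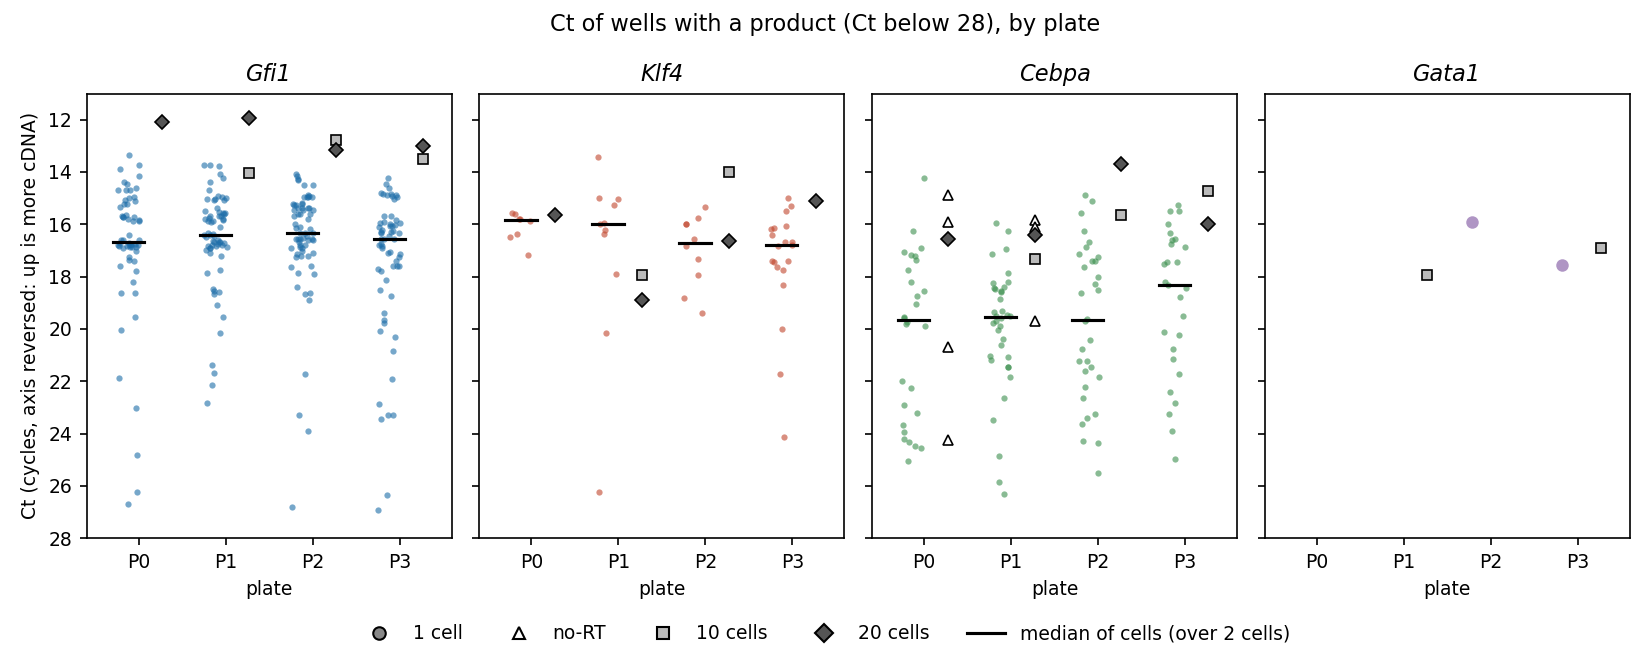
Ct (cycles, axis reversed so that more cDNA is higher) of every kept single cell with a product, by plate, for the 4 factors, with no-RT wells as open triangles, 10-cell wells as squares, 20-cell wells as diamonds and bars at the median of cells where there are over 2. Cebpa is the factor with no-RT products, 4 on P0 and 3 on P1, and its cells spread over the range from 14.23 to 26.33, while Gfi1 and Klf4 cells gather between a Ct of about 15 and 18.

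The no-RT wells separate Cebpa from the other 3 factors. Gfi1, Klf4 and Gata1 gave no product in any of 16 no-RT wells. Cebpa gave a product in 7 of 16 (43.8%, exact 95% interval 19.8% to 70.1%): in all 4 wells of P0, at a Ct of 14.89, 15.90, 20.69 and 24.23, and in 3 of 4 wells of P1, at 15.84, 16.11 and 19.71. P2 and P3 had 0 of 4 each, so the products formed without reverse transcriptase lie on 2 of the 4 plates. The median no-RT Ct of Cebpa was 16.11, and 9 of the 123 Cebpa cells of all 4 plates had an earlier Ct than that. Most of these 9 cells were on P2 and P3. The earliest Cebpa cells had a Ct of 14.23 and then 16.26 on P0, and of 15.95 and then 16.25 on P1. The mean share of Cebpa cells was 33.9% on P2 and P3 against 35.4% on all 4 plates. How much of the Cebpa product on P0 and P1 came from reverse transcription was not tested.

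Shares were compared with those of no-RT wells over the whole panel by limma on arcsine-transformed plate shares, with Benjamini-Hochberg adjustment, where 74 of 88 assays (84.1%) were called higher in cells. Gfi1 was called (difference 1.04 on that scale, adjusted p = 5.74e-09, limma), and so was Klf4 (0.38, adjusted p = 4.86e-05, limma). Gata1 was not called (0.05, adjusted p = 0.130, limma), and neither was Cebpa (-0.02, adjusted p = 0.986, limma). The Cebpa difference turned positive without P0 (0.30) or without P1 (0.09) and was called in neither case. In simulated data this test called a mean of 16.4 unchanged assays of the 88 on the panel. A stricter count was therefore set beside it. For each assay, 1 exact upper limit was taken from all 16 no-RT wells pooled over plates. The share in cells then had to exceed this pooled value on every plate. That held for 47 of 88 assays (53.4%) and, among the 4 factors, for Gfi1. The 0 of 16 no-RT wells allow a no-RT share of up to 18.8% for Klf4 and Gata1, which is more than the mean share of either in cells.

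Wells of 10 and 20 cells gave a second view of the rarer factors. Gfi1 had a product in all 4 of the 20-cell wells, at a Ct of 12.11, 11.93, 13.14 and 13.01 on P0 to P3, and in the 10-cell wells of P1, P2 and P3, at 14.02, 12.78 and 13.51. Klf4 had a product in all 4 of the 20-cell wells, at 15.63, 18.88, 16.63 and 15.09, and in the 10-cell wells of P1 (17.95) and P2 (14.00). Given the single-cell shares, 3.7 of 4 wells of 20 cells and 3.0 of 4 wells of 10 cells would hold a Klf4 cell. Without the 10-cell well of P0, Klf4 was in 2 of 3 wells of 10 cells, where 2.37 would hold a Klf4 cell, and Gfi1 was in 3 of 3, where 3.0 would hold a Gfi1 cell.

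Cebpa had a product in all 4 of the 20-cell wells, at 16.58, 16.42, 13.70 and 16.00, and in 3 of 4 of the 10-cell wells, at 17.31, 15.66 and 14.73 on P1 to P3, which is 3 of 3 without the well of P0. Gata1 was the exception to the order of the shares. It had a product in the 10-cell wells of P1 (Ct 17.94) and P3 (16.91) and in none of the 20-cell wells. At the single-cell shares, an expected number of 0.218 of 4 wells of 10 cells and 0.413 of 4 wells of 20 cells would hold a Gata1 cell. With the 10-cell well of P0 left out, that is 2 of 3 wells of 10 cells and 0 of 4 wells of 20 cells, and with 1 well of each kind per plate the difference was not tested.

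The 2 single cells with Gata1 had at least as many products as the median cell of their plates and differed in the other factors. The cell on P2 had products from 43 assays, against a plate median of 42, with Ebf1 at a Ct of 14.33, Ly6d at 10.80, the interleukin-3 receptor chain Il3ra at 15.64, and no Gfi1, Klf4, Cebpa, Csf3r, Csf1r or Pax5. The cell on P3 had products from 47 assays, with Gfi1 at 14.97, Csf3r at 18.93, Csf1r at 16.95, Ebf1 at 15.33 and Ly6d at 12.82, and no Klf4, Cebpa, Pax5 or Il3ra. Both cells thus had Ebf1 and the B lineage surface protein Ly6d and lacked Pax5. This is common among all cells, where Ebf1 was in 73.8%, Ly6d in 70.3% and Pax5 in 25.9%, so 2 cells do not set Gata1 cells apart. Of the other genes on the erythroid and megakaryocyte list, both had the transferrin receptor Tfrc (14.80 and 14.61), a reference gene found in 99.1% of all cells, and neither had Cd9, found in 29.1%. Both also had Kit, Cd34, Fli1 and Spi1, found in 97.4%, 94.5%, 49.3% and 98.8% of all cells.

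Of the 347 cells, 50 had none of the 4 factors, 168 had 1, 124 had 2, 5 had 3 and 0 had all 4. Gfi1 alone was the most common state, with 132 cells (38.0% ± 5.59 over plates), followed by Gfi1 with Cebpa in 89 (25.6% ± 2.32), Gfi1 with Klf4 in 30 (8.63% ± 5.17), Cebpa alone in 25 and Klf4 alone in 10. If the factors were independent within each plate, 78.5 cells would have Gfi1 with Cebpa, 23.3 Gfi1 with Klf4 and 12.5 all 3 of Gfi1, Klf4 and Cebpa. The last of these states was seen in 5 cells. Klf4 and Cebpa met in 9 cells, where 17.0 would be found with independence.

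To compare genes within cells, the log2 odds ratio of co-detection was computed within each plate, where 0 means that 2 genes fall in cells independently and a value above 0 means that they fall in the same cells. It was tested over 4 plates by an intercept-only limma model across all pairs, with Benjamini-Hochberg adjustment. Among 49 genes and 1176 pairs, 35 (2.98%) were called positive and 19 (1.62%) negative, and the median over all pairs was 0.11. Cebpa exceeds the limit on no-RT wells of that fit and Gata1 is too rare for it. Cebpa pairs are therefore from a second fit without that limit, over 55 genes and 1485 pairs with 49 (3.30%) positive and 22 (1.48%) negative calls. Among the factors themselves no pair was called: Gfi1 with Klf4 -0.40 ± 0.47 (95% interval -1.32 to 0.52, adjusted p = 0.715, limma), Gfi1 with Cebpa 0.22 ± 0.85 (-0.79 to 1.23, adjusted p = 0.865, limma), and Klf4 with Cebpa -1.14 ± 0.89 (-2.15 to -0.12, adjusted p = 0.216, limma). The Klf4 and Cebpa value was below 0 on all 4 plates, at -0.39, -1.63, -0.38 and -2.15.

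Cebpa was found in cells outside the Pax5 state. Of 89 cells with both Ebf1 and Pax5, Cebpa was in 9.09%, 18.2%, 9.52% and 16.7% on P0 to P3 (13.4% ± 4.73). Of 167 cells with Ebf1 and no Pax5, it was in 37.0%, 45.2%, 41.7% and 32.6% (39.1% ± 5.53). Of 90 cells with neither, it was in 50.0%, 56.5%, 50.0% and 42.1% (49.7% ± 5.90). On each plate the order was the same, lowest with Pax5 and highest with neither gene, and the Pax5 class did not overlap the other classes. The remaining cell of the 347 had Pax5 without Ebf1.

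The log2 odds ratio of Cebpa with Pax5 was -2.50, -2.0, -2.70 and -1.05 on P0 to P3, a mean of -2.06 ± 0.74 (95% interval -3.04 to -1.09, adjusted p = 0.0249, limma), with 13 cells having both where 31.7 would be found with independence. It was the 1 negative call among the 54 pairs of Cebpa, against 1.48% of all pairs, and 9 of the 54 were negative at an unadjusted p under 0.05. With Ebf1 it was -1.34, -1.18, -1.21 and -1.14 (-1.22 ± 0.09, adjusted p = 0.120, limma), which was not called although the 4 plates were close to one another. Left to P2 and P3, the plates with no Cebpa in no-RT wells, the value with Pax5 was -1.88 and not called (adjusted p = 0.304, limma, n = 2 plates). The call was also lost whichever plate was left out, with values from -2.40 to -1.85 and adjusted p from 0.0759 to 0.110 (limma).

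**Figure D2:**
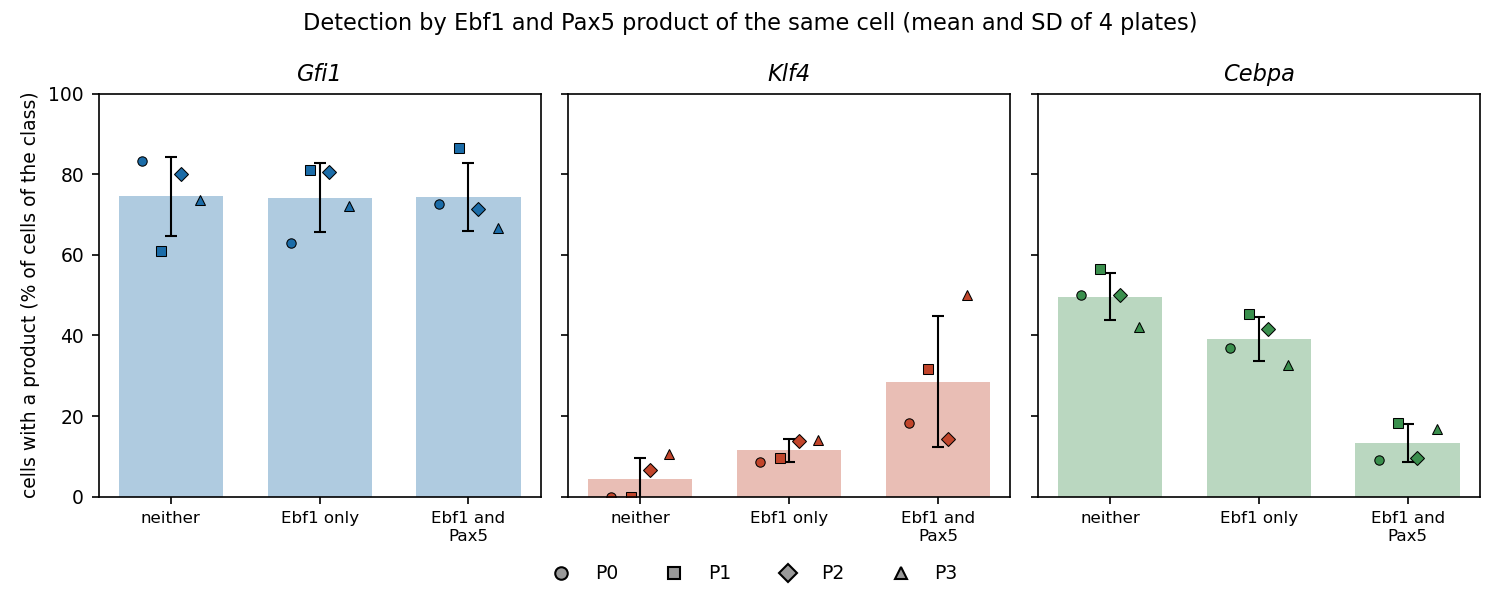
Percent of cells with a Gfi1, Klf4 or Cebpa product among cells with neither Ebf1 nor Pax5, with Ebf1 only, and with both; symbols are plates P0 to P3, bars the mean and error bars the SD of 4 plates. Gfi1 is near 74% in each class, Klf4 goes from 4.30% to 28.6% and Cebpa from 49.7% to 13.4%.

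Cebpa had its highest share in cells with both myeloid receptors, and its pairs with either receptor did not pass the test. In the 47 cells with Csf3r and Csf1r, Cebpa was in 61.5%, 58.3%, 54.5% and 54.5% on P0 to P3 (57.2% ± 3.38), against 29.5%, 31.2%, 34.3% and 16.2% (27.8% ± 7.98) in the 148 cells with neither. The 122 cells with Csf3r only had 38.8% ± 7.95 and the 30 cells with Csf1r only 20.3% ± 17.6, and those 30 cells leave 5 to 10 per plate. The 47 cells with both receptors stood above the cells with neither on every plate. The log2 odds ratio with Csf3r was 0.90, 0.91, 0.40 and 2.23 (1.11 ± 0.78, 95% interval 0.12 to 2.09, adjusted p = 0.215, limma), and with Csf1r 0.94, 0.67, 0.59 and 0.51 (0.67 ± 0.19, interval -0.20 to 1.55, adjusted p = 0.418, limma).

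The receptors and the B factors were also read together. Cebpa was in 50.2% ± 4.94 of the 83 cells with a receptor and neither B factor, in 33.8% ± 7.91 of the 116 cells with both kinds of gene, and in 27.2% ± 7.18 of the 141 cells with a B factor and no receptor. Cells with both kinds of gene thus overlapped those with a B factor only, and both lay below 44.4%, the lowest plate of the cells with a receptor only. The differences between these classes were not tested apart from the pairs above.

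The partners with the highest values for Cebpa were Nfil3, a factor needed for NK cells (3.79, 1.34, 1.94 and 2.26 on P0 to P3, 2.33 ± 1.04, adjusted p = 0.0229, limma), and Fut4, an enzyme of SSEA-1 sugar synthesis (1.85, 1.22, 3.13 and 3.05, 2.31 ± 0.94, adjusted p = 0.0212, limma). These were the 2 positive calls of its 54 pairs, against 3.30% of all pairs. Both partners gave products in 12 of 16 no-RT wells, all 7 no-RT wells with Cebpa also had Nfil3, and 5 of them had Fut4, and the part of products formed without reverse transcriptase in these pairs was not tested. On P2 and P3 alone the values were 2.10 for Nfil3 (adjusted p = 0.236, limma) and 3.09 for Fut4 (adjusted p = 0.167, limma), and both calls were also lost whichever plate was left out. Id2, an inhibitor of E proteins, followed at 1.37 ± 0.36 (adjusted p = 0.0952, limma), with 1.62, 1.73, 1.14 and 0.98 on the plates. After Pax5, the lowest were the surface enzyme Bst1 (-1.36 ± 0.38, adjusted p = 0.0984, limma) and the GDNF family receptor Gfra2 (-1.26 ± 0.48, adjusted p = 0.127, limma). The median over the 54 pairs was 0.22, against 0.13 over all pairs of that fit.

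Klf4 was found in cells on the B lymphoid side. Of the 49 Klf4 cells, 45 had Ebf1, 45 had Ly6d and 26 had Pax5, where 36.4, 34.8 and 13.0 would be found with independence. In cells with neither Ebf1 nor Pax5, Klf4 was in 0%, 0%, 6.67% and 10.5% on P0 to P3 (4.30% ± 5.21). In cells with Ebf1 and no Pax5 it was in 8.70%, 9.52%, 13.9% and 14.0% (11.5% ± 2.80). In cells with both it was in 18.2%, 31.8%, 14.3% and 50.0% (28.6% ± 16.1). The order was the same on every plate, but on P2 the classes with and without Pax5 differed by less than 1 percentage point.

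The log2 odds ratio of Klf4 with Ly6d was 3.34, 3.16, 0.14 and 2.78 (2.35 ± 1.49, adjusted p = 0.0380, limma). With Ebf1 it was 2.38, 3.34, 0.97 and 1.47 (2.04 ± 1.04, adjusted p = 0.0380, limma), and with Pax5 1.71, 2.73, 0.59 and 2.57 (1.90 ± 0.98, adjusted p = 0.0468, limma). P2 had the lowest value in all 3 pairs. These were the 3 positive calls of 48 Klf4 pairs, against 2.98% of all pairs, and no Klf4 pair was called negative, with 4 at an unadjusted p under 0.05. All 3 calls were lost without P0, P1 or P3, with adjusted p from 0.135 to 0.241 (limma), and with each plate centred on its mean pair (0.0526 to 0.0676, limma).

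On the myeloid side, the mean values of Klf4 with both receptors lay below 0, and neither pair passed the test. With Csf3r the log2 odds ratio was -2.10, -1.58, -0.11 and -1.37 (-1.29 ± 0.84, 95% interval -2.29 to -0.29, adjusted p = 0.165, limma), with 15 cells having both where 24.0 would be found with independence. With Csf1r it was -0.51, -3.25, 0.91 and -0.68 (-0.88 ± 1.73, interval -2.20 to 0.44, adjusted p = 0.520, limma), and the 4 plates did not share a sign. It was -0.09 without P1 and -1.48 without P2, and the Csf3r pair was called with cells split by number of assays (-1.44, adjusted p = 0.0443, limma; 0.0885 to 0.415 under its other alternatives). Klf4 was in 20.5% ± 8.34 of cells with neither receptor, 9.32% ± 7.91 with Csf3r only, 12.9% ± 17.7 with Csf1r only and 6.47% ± 8.61 with both, and these classes overlapped. The other low partners were the TNF family ligand Tnfsf8 (-1.59 ± 1.07, adjusted p = 0.107, limma) and the interleukin-4 receptor chain Il4ra (-1.54 ± 1.03, adjusted p = 0.115, limma), each below 0 on all 4 plates.

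**Figure D3:**
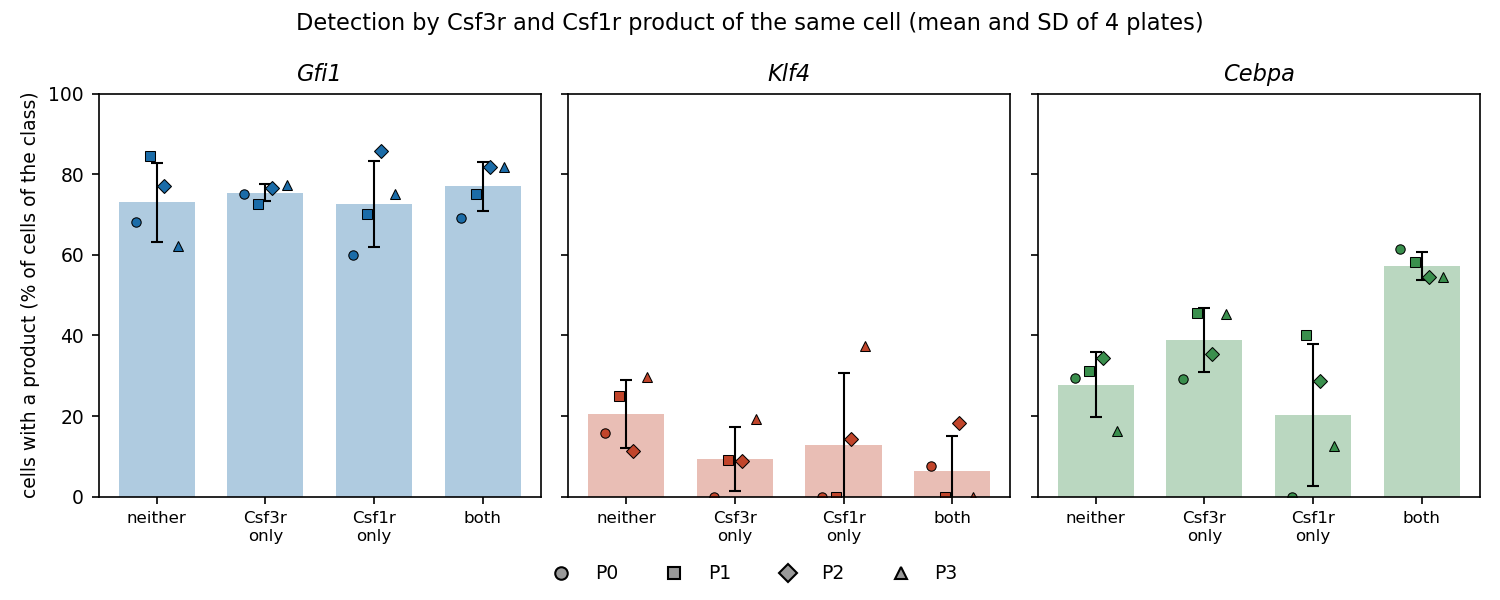
Percent of cells with a Gfi1, Klf4 or Cebpa product among cells with neither Csf3r nor Csf1r, with one of them, or with both; symbols are plates P0 to P3, bars the mean and error bars the SD of 4 plates. Cebpa is at 57.2% with both receptors and 27.8% with neither, while the Gfi1 means lie between 72.7% and 77.0% and the Klf4 plates overlap.

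No pair of Gfi1 with the B factors or the myeloid receptors was called. It was in 74.5% ± 9.91 of cells with neither Ebf1 nor Pax5, 74.2% ± 8.46 of cells with Ebf1 only and 74.3% ± 8.46 of cells with both, and in 73.0% ± 9.78 of cells with neither receptor against 77.0% ± 6.08 of cells with both. The log2 odds ratio was -0.02 ± 1.17 with Ebf1 (95% interval -1.12 to 1.09, adjusted p = 0.989, limma), 0.04 ± 0.75 with Pax5 (-0.94 to 1.02, adjusted p = 0.970, limma), 0.17 ± 0.67 with Csf3r (-0.79 to 1.13, adjusted p = 0.887, limma) and 0.08 ± 0.55 with Csf1r (-0.86 to 1.01, adjusted p = 0.956, limma). These intervals leave room for about a factor of 2 in the odds either way. The plates disagreed most for Ebf1, at -1.19, 1.61, -0.19 and -0.28 on P0 to P3.

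The 1 positive call among the 48 pairs of Gfi1, against 2.98% of all pairs, was with Cd34, a surface protein of stem and early progenitor cells (1.80, 1.32, 4.86 and 1.40, 2.35 ± 1.69, adjusted p = 0.0477, limma). Cd34 was in 94.5% of cells, so the call rests on few: 8 of the 257 Gfi1 cells and 11 of the 90 cells without Gfi1 lacked it. The call was lost whichever plate was left out (1.51 to 2.69, adjusted p from 0.106 to 0.156, limma), with a product defined as a Ct below 25 (adjusted p = 0.0745, limma), with each plate centred (0.0655) and without the no-RT limit (0.0524). The next partners were the signalling receptor Cd244a (1.81 ± 1.40, adjusted p = 0.0970, limma) and the B cell surface protein Cd72 (1.34 ± 1.39, adjusted p = 0.229, limma), which was -0.23 on P0. Without P2 they were 1.18 and 0.81. Cd244a was called under 5 of 13 alternatives and Cd72 under 2 of 13, with adjusted p from 0.00283 to 0.309 and from 0.00538 to 0.533 (limma). The lowest were Ly86, the partner of the receptor RP105 (-1.22 ± 0.51, adjusted p = 0.158, limma), the enzyme Cd38 (-0.90 ± 0.49, adjusted p = 0.308, limma) and Cd5 (-0.79 ± 0.61, adjusted p = 0.407, limma). Gfi1 was in 67.2% ± 3.76 of cells with Ly86 and 82.8% ± 5.87 of cells without it, and in this pair all 4 plates were below 0, at -0.65, -1.83, -0.99 and -1.40.

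**Figure D4:**
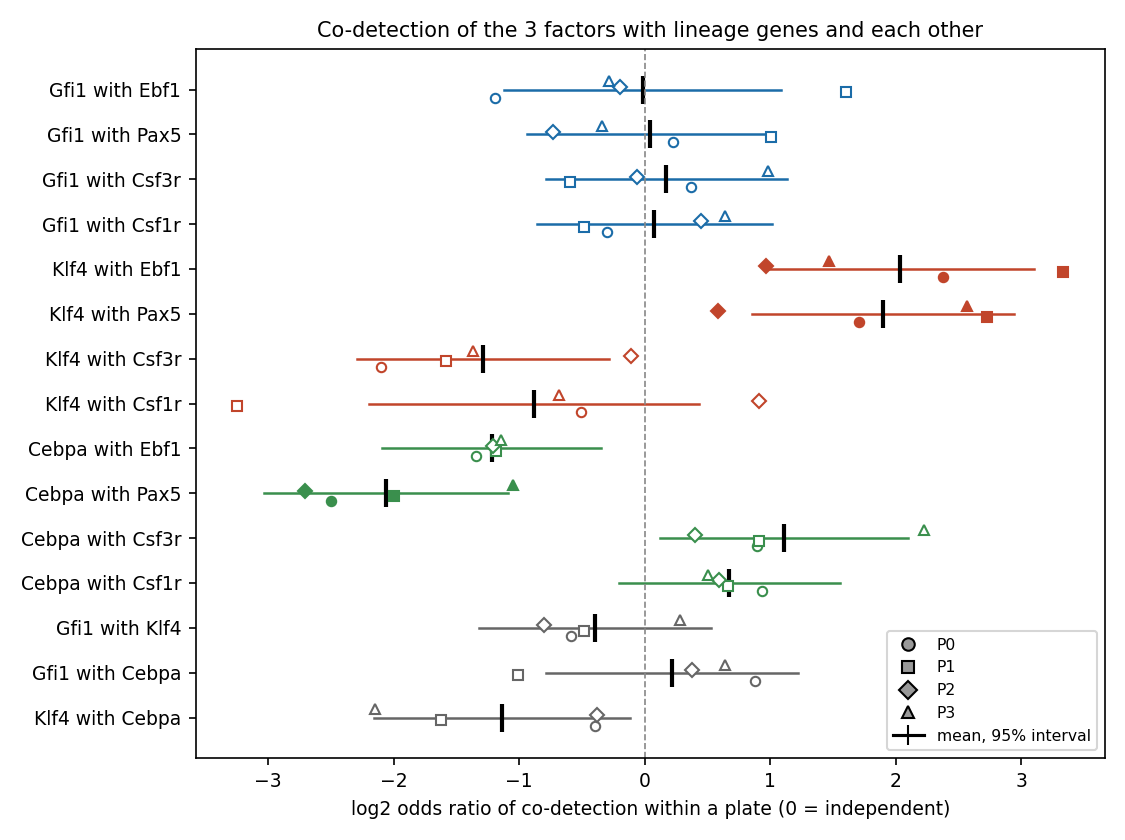
Log2 odds ratio of co-detection within a plate (x axis, 0 = independent) for Gfi1, Klf4 and Cebpa with Ebf1, Pax5, Csf3r and Csf1r and with each other; symbols are plates, the vertical tick and line the mean and its 95% interval, and filled symbols mark pairs with a limma adjusted p under 0.05. Klf4 with Ebf1 (2.04) and Pax5 (1.90) lies to the right, Cebpa with Pax5 (-2.06) to the left, and the 4 Gfi1 pairs straddle 0.

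The lists of lineage genes were chosen with earlier results known, so their counts restate the pairs and support nothing further. Of 8 B lymphoid genes matched by name on the panel, those that entered the fit were Ebf1, Pax5 and Ly6d, described above for Klf4 and Cebpa, and none of the 3 was called for Gfi1 (median 0.04). The listed genes Foxo1 and Tcf3 were not counted, because their assays, FOX01 and TCF3E2A, matched no gene symbol. These assays were at 0.78 and 0.04 with Klf4, 0.38 and 1.10 with Gfi1, and -1.26 and 0.17 with Cebpa. None of these pairs was called, and FOX01 with Klf4 was at -0.02 on both P1 and P2. Of 5 genes of the myeloid receptor and surface list, none was called with any factor. The 4 that entered the Cebpa fit (Csf3r, Csf1r, Cd68 and Il6ra) all had a mean above 0 (median 0.66), and the 3 that entered with Klf4 all had a mean below 0 (median -0.88). With Cebpa, Cd68 and Il6ra were below 0 on P0, at -0.20 and -0.24. Cd68 gave a product in 11 of 16 no-RT wells, and the part of that product in its pair with Cebpa was not tested. Of 8 NK and innate lymphoid genes, 6 entered with Cebpa, of which 5 were above 0 and Nfil3 was called (median 1.14); 5 entered with Gfi1 (median -0.09) and Klf4 (median -0.37), with no call. Of 6 T lymphoid genes matched by name, 3 entered and none was called: all 3 were below 0 with Gfi1 (median -0.75) and Klf4 (median -0.63), and 2 were above 0 with Cebpa (median 0.87). The listed gene Thy1 was not counted, because its assay CD90.2 matched no gene symbol, and neither was the unmatched assay TCF. With Gfi1, Klf4 and Cebpa, CD90.2 was at 0.19, -0.12 and 0.05 and TCF at 0.17, 1.26 and 0.20, none of them called. Of 5 dendritic genes, all entered, and the 1 call was Klf4 with Ly6d, which is also on the B lymphoid list; the medians were 0.04 for Gfi1, -0.37 for Klf4 and 0.68 for Cebpa. Of 4 stem and multipotent genes, 3 entered, and all 3 were above 0 with Gfi1 (median 1.28, 1 called) and below 0 with Klf4 (median -0.24, none called), while 2 were above 0 with Cebpa (median 0.40, none called). Of 4 erythroid and megakaryocyte genes, 2 entered and none was called with any factor.

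The yield of cells with and without a factor differed by less than 1 assay in the mean over plates. Cells with Gfi1 had products from 41.9 ± 0.85 other assays (mean and SD of 4 plate medians), against 41.3 ± 0.96 without it. The values were 42.6 ± 0.75 and 42.3 ± 0.50 for Klf4 and 42.4 ± 1.11 and 42.3 ± 0.50 for Cebpa. The mean Ct of the reference genes Atp5a1, Hprt and Tfrc was 13.5 in cells with Gfi1 and 13.8 in cells without it, 13.4 and 13.6 for Klf4, and 13.5 and 13.6 for Cebpa. Single plates differed more. On P0 the medians with and without Gfi1 were 43.0 and 40.0 other assays and a reference Ct of 13.09 and 13.79, while P2 had 41.0 and 42.0 other assays. For Klf4 the reference Ct was 12.47 and 13.35 on P0 and 13.88 and 13.58 on P2. Split by the number of assays or by reference Ct within plates, the 3 Klf4 calls, the Gfi1 call with Cd34 and the 3 Cebpa calls were kept. The split by number of assays also added calls for Gfi1 with Cd244a, Klf4 with Csf3r and Il4ra, and Cebpa with Ebf1, Bst1 and Gfra2, and the split by reference Ct for Gfi1 with Cd244a and Cd72, at adjusted p from 0.0042 to 0.0443 (limma).

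Last, the level of each factor, as 28 minus Ct among the cells that had it, was set against the presence of every other gene. Over the panel 2060 ordered pairs could be fitted and 15 (0.728%) were called. None of 41 partners was called for Gfi1, where 2 were higher at an unadjusted p under 0.05, and none of 9 for Klf4, where 1 was. Without the limit on no-RT wells 2645 pairs could be fitted and 19 (0.718%) were called, none among the 33 partners of Cebpa, where unadjusted p-values under 0.05 were met by 3 partners with a higher and 2 with a lower level.

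The largest difference for Gfi1 was in cells with Tnfrsf1b, a receptor for TNF, where its level was higher by 1.79, 1.16, 1.53 and 0.71 cycles on P0 to P3 (1.30 ± 0.47, adjusted p = 0.0816, limma). With at least 5 rather than 3 cells on each side, fewer pairs were tested and this one was called (adjusted p = 0.0268, limma). For Cebpa it was in cells with Tnfsf8, higher by 1.96, 1.57, 0.86 and 0.88 cycles (1.32 ± 0.54, adjusted p = 0.0959, limma), and it too was called with at least 5 cells (adjusted p = 0.0393, limma). It was 0.82 after subtracting the reference genes (adjusted p = 0.104, limma) and 0.87 on P2 and P3 alone (adjusted p = 0.369, limma). Cebpa was also higher in cells with Csf1r, by 0.28, 1.30, 1.77 and 1.15 cycles (1.13 ± 0.62, adjusted p = 0.132, limma), which did not pass the test. For Klf4 the largest difference was with the assay CD278, at 0.10, 0.43, 1.25 and 2.66 cycles (1.11 ± 1.14, adjusted p = 0.273, limma), and without P3 it was 0.59.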

How the data were processed

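Sorted cells were lysed, frozen, reverse transcribed and pre-amplified in 1 well with all 96 assays, and products were read on a Fluidigm chip, per the labels' protocols. The deposited values are Ct on an inverse log2 scale, which the authors did not normalize as far as the file shows. They ran from 5.71 to 40, with 58.2% at 40 (no product) and 22 between 28 and 40. For the Ct software and threshold, none is given in the sources used here. All columns matched a sample title. Of 96 assay names, 47 matched a RefSeq symbol (GRCm38.p6, for names), 34 a synonym and 15 none.

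A well was kept when over 50% of 3 reference genes gave a product and its number of assays was not below 50% of the plate's median; 13 wells were left out. Plates were the replicates, never cells. limma 3.58.1 (R 4.3.3) was used with a threshold of 0.05. Shares entered the detection fit as the arcsine of their square root. The fit had no plate block. The plates pair cells with no-RT wells by label, and the deviations of the pairs correlated at 0.05, 0.01, -0.19 and 0.05. Co-detection took genes found in 5% to 95% of cells with under 4 of 16 no-RT wells positive, with 0.5 added to each count. Level differences needed at least 3 cells on each side of every plate. Intervals of shares are exact at 95%, and limits for 0 use 3 counts; both cover counting error only.

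The members, lists and tests were chosen with earlier results of these data known. Named are the 4 factors, Csf3r, Csf1r, Ebf1, Pax5, each factor's 3 highest and 3 lowest partners, every called pair, its largest level difference, the level of Cebpa by Csf1r, and genes of the lineage lists. The assays FOX01, TCF3E2A, CD90.2 and TCF, which matched no gene symbol, are named beside the lists. The tests were run on simulated data: co-detection at an odds ratio of 8 recovered 78.3% of changed pairs among 1176 with a mean of 0.45 false calls, and the level test recovered 93.5% of 2-cycle differences among 1216 pairs with 0.4. Detection recovered 98.5% of the 20 assays changed per run among 88, with a mean of 16.4 false calls among the rest, and the exact upper limit 100% with 0.1. A small gap in detection from no-RT wells is therefore no evidence by itself. Motifs were searched on both strands of the 250 bases upstream.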

Additional observations from a re-analysis of the deposited data

Results flagged for a closer look

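Of 46 sets of 4 plate values, 4 held a plate far from the rest, and chance gives about 1 in 20. The median Ct of Cebpa was lowest on P3, at 18.31, against 19.55 to 19.67 elsewhere. The log2 odds ratio of Gfi1 with Cd34 was highest on P2, at 4.86, where all 68 Gfi1 cells had Cd34. That of Klf4 with Il4ra was lowest on P2, at -3.07, and that of Cebpa with Gfra2 was highest on P0, at -0.55.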

How the results depend on the processing

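Precision is limited by 4 plates, 4 no-RT wells per plate, 49 Klf4 cells and 2 Gata1 cells; with 4 plates no call of a factor's pair outlived every left-out plate. Of the values recomputed under the alternatives, 461 were classed as the same, 41 gained a call or a larger count, 65 lost a call or had a smaller count, and 18 changed sign. A tested value was the same when it kept its direction and its side of the threshold. Counts were classed as the same within a fixed ratio, and shares within the SD of the plates. With the plate as replicate block, 73 assays were higher in cells than in no-RT wells against 74, and no call of the 4 factors changed. Under the exact upper limit it was 47. Assays with a higher level than no-RT products, 2 of 7, ranged from 0 to 2 with a plate left out. Positive pairs, 35 in all, became 324 without quality control of cells, 67 with 1 added to each count, 308 with genes in 1% to 99% of cells, 57 and 59 with cells split by assays or reference Ct, 23 with plates centred, and 4 to 21 with a plate left out. Negative pairs, 19 in all, became 41, 273, 52 and 33 under the same added count, gene range and splits, and 0 to 13 with a plate left out. Level differences, 11 higher and 4 lower, became 17 higher after subtracting the reference genes, 30 and 11 with at least 5 cells on each side, and 0 of either with any plate left out. The cause was not tested.

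The changes of sign were in uncalled values near 0. Gfi1 with Ebf1 (-0.02) was 0.22 at a Ct below 25, 0.65 without quality control, 0.037 with 1 added, 0.10 split by reference Ct, and -0.56 to 0.38 with a plate left out. Gfi1 with Pax5 (0.04) was -0.013 with 1 added, -0.085 with plates centred, and -0.28 to 0.30 with a plate left out. Gfi1 with Csf1r (0.08) was -0.049 with plates centred and -0.11 to 0.26 with a plate left out, Gfi1 with Csf3r (0.17) -0.10 to 0.43, and Gfi1 with Cebpa (0.22), without the no-RT limit, -0.0011 to 0.63. The Cebpa share against no-RT wells (-0.02) ranged from -0.24 to 0.30 with a plate left out. Leaving out the no-RT limit together with another alternative, taking P2 with P3 alone, and leaving out the 10-cell well of P0 were chosen after seeing the data.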
